A study of Mus musculus with 6 samples.

Results

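In all, 10 genes of the Notch pathway were read from the neurosphere arrays: the receptors Notch1 and Notch2, the ligands Dll1, Dll3 and Jag1, the glycosyltransferase Lfng, and the target genes Hes1, Hes5, Hey1 and Hey2. They were chosen by symbol, through the transcript clusters that the array annotation names for 1 gene only, and all 10 were found among the 19937 genes measured, each with 1 cluster. Neurospheres are floating colonies grown from precursor cells, here from the hippocampus of adult male C57BL/6J mice aged 8 to 12 weeks. All cultures received EGF and bFGF, and they were grown with 10 µM norepinephrine (N, 3 arrays) or 15 mM potassium chloride (K, 3 arrays) and collected on day 14 as primary neurospheres, which the sample labels call small. No untreated neurospheres were measured on these arrays, so a difference could come from either treatment. Each array is labelled a biological replicate, and the sources used here do not state how many animals contributed to each.

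Notch receptors sit in the cell membrane and are activated by ligands on neighbouring cells. Cleavage by ADAM proteases and gamma-secretase then frees the intracellular part, which enters the nucleus and joins the DNA-binding protein RBPJ and a Mastermind co-activator to switch on Hes and Hey genes. The Hes and Hey proteins are repressors that hold back proneural genes, and in neural precursors this signalling is known for delaying neuronal differentiation and keeping stem cells in reserve. In neurospheres, as in other bulk samples, fewer cells of a type and less RNA per cell cannot be told apart.

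Values are log2 RMA values as the authors deposited them. A difference is the N mean minus the K mean (log2FC), with the standard error and test of limma fitted to all genes. P-values were adjusted across the whole gene set by the Benjamini-Hochberg method. The median over all clusters and arrays was 6.34, which serves only to say where a cluster was dim. The array medians ran from 6.30 to 6.40. Across clusters, K replicate 2 had a mean correlation of 0.969 with the N arrays and of 0.954 with the remaining K arrays, and K replicate 1 had 0.955 and 0.954, and values with single arrays left out are given beside the genes they move most. The precursor marker Sox2 averaged 10.16 ± 0.26 with N and 9.90 ± 0.27 with K (SD, n = 3 each), Nes had a log2FC of -0.53 (adjusted p = 0.390 from limma), 8 of the 10 precursor markers had a positive log2FC with 0 passing after adjustment, and the mean over the 10 lay between 9.26 and 9.38 with N and between 9.14 and 9.32 with K.

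For the 10 Notch genes, limma gave 0 calls at an adjusted p under 0.05, beside 0.155% of all genes (0.12% higher and 0.0351% lower with N). At an unadjusted P under 0.05, limma called 1 of the 10, Notch2, which was lower with N, beside 8.54% of all genes called in either direction, 4.64% as higher and 3.89% as lower. In an ordinary linear model without moderation 0 passed after adjustment and 1 passed before it, Dll3 in place of Notch2. The median log2FC of the 10 genes was -0.10, against -0.03 over all genes, and 4 of the 10 were positive, against 43.0% of all genes. The number negative was 6 in limma, 5 with cyclic loess normalization and 8 without N replicate 3, and the median was -0.049 with cyclic loess normalization and -0.051 without K replicate 3. Over all genes, 50.4% were positive with cyclic loess normalization and 44.8% without N replicate 3. The median over all genes was 0.002 with cyclic loess normalization and -0.013 without K replicate 3. The log2FC ran from -0.38 for Notch2 to 0.44 for Hey1, with standard errors from 0.11 to 0.21. The study's rules were applied here with limma P-values, since the paper names no test for its own. None of the 10 met the study's rule for a differing gene (log2FC over 1 in size with P under 0.05), which 0.492% of all genes met. Notch1, Dll1 and Hey2 met its rule for an unchanged gene (log2FC under 0.1 in size with P over 0.1), beside 41.7% of all genes. The spread between arrays of 1 group was above the median of all genes for 8 of the 10 (median SD 0.23, against 0.18 over all genes).

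**Figure D1:**
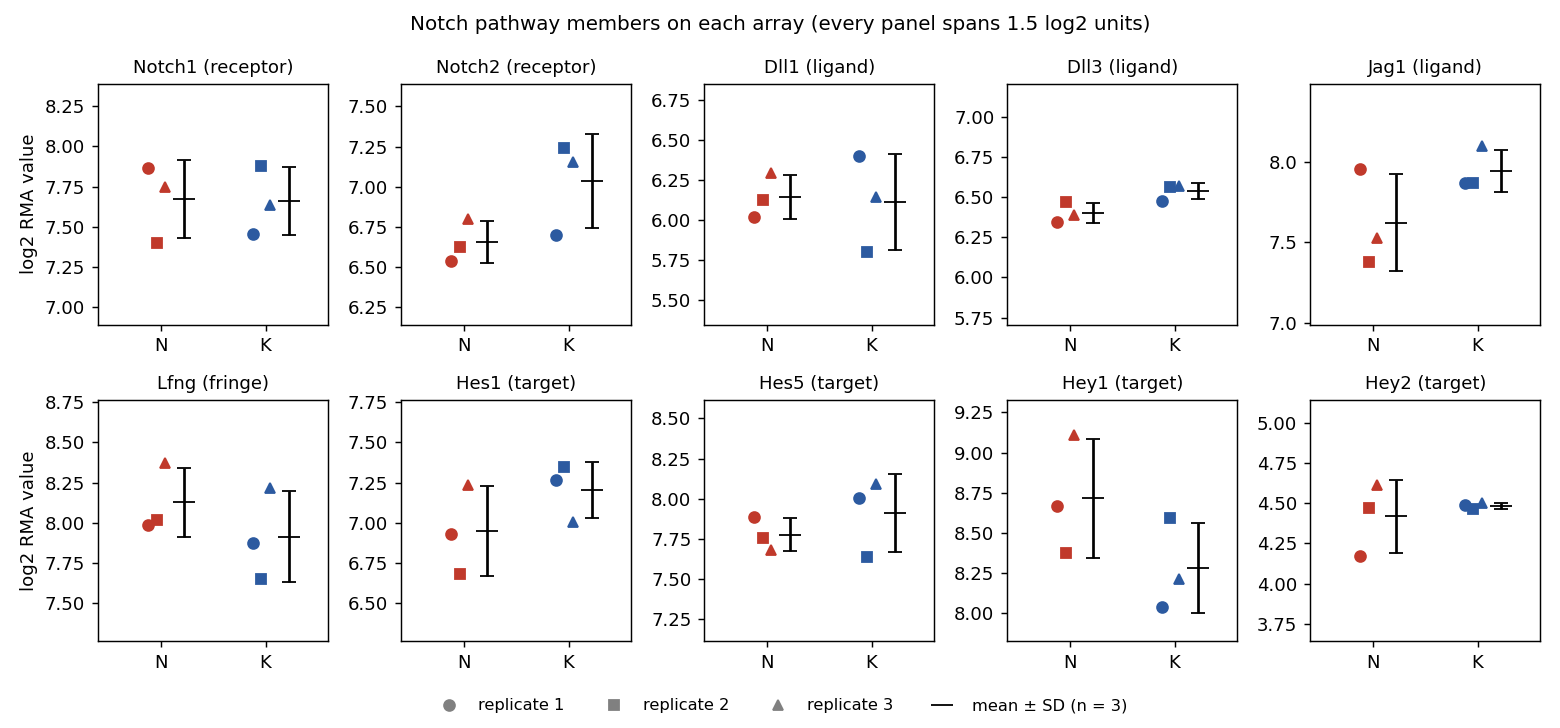
Log2 RMA values (vertical axes) of the 10 Notch genes on the 3 N arrays (red) and the 3 K arrays (blue), with replicate numbers as point shapes and black bars for mean ± SD; every panel spans the same range in log2 units. The N and K points overlap for every gene apart from Dll3, whose N arrays lie at 6.34 to 6.47 and K arrays at 6.48 to 6.57.

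Notch1 and Notch2 encode closely related receptors of neural precursors. On GRCm38 Notch1 lies on chromosome 2 from 26457902 to 26503822, and Notch2 on chromosome 3 from 98013538 to 98150367. Notch1 read 7.87, 7.40 and 7.75 on N replicates 1 to 3 and 7.46, 7.88 and 7.64 on K replicates 1 to 3. Both groups covered nearly the same range, and the means were 7.67 ± 0.24 with N and 7.66 ± 0.21 with K (SD, n = 3 each). The log2FC of Notch1 was 0.01 (standard error 0.17, 95% interval -0.37 to 0.39, adjusted p = 0.989 from limma), which as a fold of N over K spans 0.776 to 1.31. Without K replicate 2 it was 0.12, and without K replicate 1 it was -0.09.

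Notch2 read 6.54, 6.63 and 6.80 on the N arrays and 6.70, 7.24 and 7.16 on the K arrays. K replicates 2 and 3 lay above every N array, while K replicate 1 lay below N replicate 3, so the groups overlapped. The log2FC of Notch2 was -0.38 (standard error 0.17, 95% interval -0.76 to -0.0008), or 0.769 times the K level. Its unadjusted P was 0.0496 and its adjusted p 0.583 from limma. Over the 16 settings, limma as given and 15 alternatives, the log2FC of Notch2 ran from -0.55 without K replicate 1 to -0.27 without K replicate 2, and its unadjusted P was under 0.05 in 6. The P was 0.05 or more with N replicate 1, N replicate 2, K replicate 2 or K replicate 3 left out, with the other normalizations, and with the filter on intensity, all transcript clusters or the ordinary linear model.

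Dll1, Dll3 and Jag1 encode Notch ligands. Dll1 and Jag1 activate the receptor on a neighbouring cell, whereas Dll3 is known for blocking Notch within its own cell. Dll1 lies on chromosome 17 from 15367354 to 15376932, Dll3 on chromosome 7 from 28293555 to 28301785 and Jag1 on chromosome 2 from 137081451 to 137116520. Dll1 read 6.02, 6.13 and 6.29 on the N arrays and 6.40, 5.80 and 6.15 on the K arrays. The K arrays alone spanned a wider range than the N arrays and enclosed it. The log2FC of Dll1 was 0.03 (standard error 0.17, 95% interval -0.35 to 0.41, adjusted p = 0.975 from limma), and without K replicate 2 it was -0.13. Its cluster lay close to the median of all clusters, as did that of Dll3.

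Dll3 read 6.34, 6.47 and 6.39 on the N arrays and 6.48, 6.56 and 6.57 on the K arrays. It was the 1 gene of the 10 whose groups did not overlap, all N arrays lying below all K arrays by a narrow margin. Groups apart in this direction were seen for 7.55% of all genes, apart in the other direction for 5.78% and in either for 13.3%. The log2FC was -0.14 (standard error 0.11, 95% interval -0.39 to 0.12, adjusted p = 0.804 from limma). Its spread between arrays was small, with SDs of 0.06 and 0.05, and limma draws such a spread towards that of other genes. In the ordinary linear model, which does not, Dll3 had an unadjusted P of 0.0429 and an adjusted p of 0.704. The exact two-sided permutation test over the 6 arrays gave p = 0.1, the smallest that 3 arrays against 3 can give.

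Jag1 read 7.96, 7.38 and 7.53 on the N arrays and 7.87, 7.87 and 8.10 on the K arrays. N replicates 2 and 3 lay below every K array, and N replicate 1 lay above 2 of the 3. The log2FC of Jag1 was -0.32 (standard error 0.17, 95% interval -0.71 to 0.06, adjusted p = 0.664 from limma). Without N replicate 1 it was -0.49, with an unadjusted P of 0.0131 and an adjusted p of 0.618 from limma, and without N replicate 2 it was -0.20 (adjusted p = 0.931 from limma).

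The promoters of Hes5, Hey2 and Lfng are printed because they hold the word that RBPJ binds, so the pathway's own DNA-binding protein has a candidate site before genes measured here. RefSeq promoter windows on GRCm38.p6 were found for 8 of the 10 genes, in 9 windows since Dll1 had a pair, and none was found for Hes1 and Hey1. A window belongs to a transcript start that RefSeq lists, which for Hes5 and for 1 window of Dll1 lies inside the gene's span and not at its outer end. In the 250 bases before the start, GTGGGAA was searched on both strands, together with CACGCG and CACNAG, words of the kind that Hes and Hey proteins bind. GTGGGAA stood in the windows of 3 of the 8 genes and in 5.42% of all 32851 windows of that length in the table. Each sequence runs 5′ to 3′ on the gene's strand, in lower case with the RBPJ word in capitals, read as GTGGGAA or, where it lies on the opposite strand, as TTCCCAC. Hes5 is on the plus strand at chr4:154960673-154960922, Lfng on the plus strand at chr5:140607091-140607340, and Hey2 on the minus strand at chr10:30842784-30843033.
Hes5: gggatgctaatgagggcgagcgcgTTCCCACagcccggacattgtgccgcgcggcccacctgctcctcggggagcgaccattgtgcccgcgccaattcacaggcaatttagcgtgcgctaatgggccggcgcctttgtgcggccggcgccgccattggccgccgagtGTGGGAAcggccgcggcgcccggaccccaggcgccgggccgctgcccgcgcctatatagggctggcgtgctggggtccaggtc
Lfng: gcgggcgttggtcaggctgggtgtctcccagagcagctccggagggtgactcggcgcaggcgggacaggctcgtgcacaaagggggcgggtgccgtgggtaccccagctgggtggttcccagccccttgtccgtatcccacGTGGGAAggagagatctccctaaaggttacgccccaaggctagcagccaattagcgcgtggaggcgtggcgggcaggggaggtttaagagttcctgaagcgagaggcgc
Hey2: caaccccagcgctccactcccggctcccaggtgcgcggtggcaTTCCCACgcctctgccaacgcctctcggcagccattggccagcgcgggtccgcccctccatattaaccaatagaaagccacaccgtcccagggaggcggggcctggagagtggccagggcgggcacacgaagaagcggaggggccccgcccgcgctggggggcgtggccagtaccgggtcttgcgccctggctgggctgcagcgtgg
Hes5 held the word 2 times, once on each strand, at bases 226 to 220 and 83 to 77 before the start. Lfng held it once, at bases 109 to 103, and Hey2 once, at bases 207 to 201 on the opposite strand. CACGCG stood in the windows of Notch2, Jag1, Lfng and Dll1 (7.62% of all windows) and CACNAG in those of Notch1, Notch2 and Lfng (36.7% of all windows). In these windows no matches overlapped each other. A match is a run of letters and was not measured as a binding site.

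Lfng encodes Lunatic fringe, which adds sugars to the Notch extracellular part and so alters how it responds to ligands. It lies on chromosome 5 from 140607341 to 140615545. Lfng read 7.99, 8.02 and 8.37 on the N arrays and 7.87, 7.65 and 8.21 on the K arrays. Replicate 3 was the highest of each group, and K replicate 3 lay above N replicates 1 and 2. The log2FC of Lfng was 0.21 (standard error 0.18, 95% interval -0.19 to 0.62, adjusted p = 0.805 from limma). It ranged from 0.08 without K replicate 2 to 0.36 without K replicate 3.

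Hes1 and Hes5 encode the Notch effectors best known for maintaining neural precursors. Hes1 lies on chromosome 16 from 30065357 to 30067796, and Hes5 on chromosome 4 from 154960626 to 154962372. Hes1 read 6.93, 6.68 and 7.24 on the N arrays and 7.26, 7.34 and 7.01 on the K arrays. N replicates 1 and 2 lay below every K array and N replicate 3 lay within the K range. The log2FC of Hes1 was -0.26 (standard error 0.17, 95% interval -0.64 to 0.13, adjusted p = 0.750 from limma). Without N replicate 3 it was -0.40, with an unadjusted P of 0.0440 and an adjusted p of 0.687 from limma, and without N replicate 2 it was -0.12 (adjusted p = 0.957 from limma).

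Hes5 read 7.89, 7.76 and 7.68 on the N arrays and 8.00, 7.64 and 8.09 on the K arrays. The N arrays lay close together inside the K range, with K replicate 2 the lowest of all 6. Its log2FC was -0.14 (95% interval -0.48 to 0.21, adjusted p = 0.856 from limma), so as a fold of N over K the interval spans 0.719 to 1.15. The log2FC of Hes5 ranged from -0.27 without K replicate 2 to -0.04 without K replicate 3.

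Hey1 and Hey2 encode relatives of the Hes proteins that also follow Notch activation, and are well known from blood vessels and heart as well as brain. Hey1 lies on chromosome 3 from 8663359 to 8667038, and Hey2 on chromosome 10 from 30832359 to 30842783. Hey1 read 8.67, 8.37 and 9.11 on the N arrays and 8.04, 8.59 and 8.21 on the K arrays. N replicates 1 and 3 lay above every K array, and N replicate 2 lay below K replicate 2. The means were 8.72 ± 0.37 with N and 8.28 ± 0.28 with K (SD, n = 3 each). The log2FC of Hey1, the highest of the 10 genes, was 0.44 (standard error 0.21, 95% interval -0.05 to 0.92), or 1.35-fold with an interval from 0.967 to 1.89. Its unadjusted P was 0.0718 and its adjusted p 0.636 from limma. Without K replicate 2 the log2FC of Hey1 was 0.59 (unadjusted P = 0.0297, adjusted p = 0.297 from limma). In that setting limma gave 2912 of all genes at an unadjusted P under 0.05, against 1702 with all arrays. Without N replicate 2 the log2FC of Hey1 was 0.61 (unadjusted P = 0.0229, adjusted p = 0.660 from limma), whereas without N replicate 3 it was 0.24 and without K replicate 1 it was 0.32.

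Hey2 read 4.17, 4.47 and 4.61 on the N arrays and 4.49, 4.46 and 4.50 on the K arrays. This cluster was dim on every array, well under the median of all clusters. The K arrays lay close together (SD 0.02), while N replicate 1 lay lowest and N replicate 3 highest. The log2FC of Hey2 was -0.07 (95% interval -0.39 to 0.25, adjusted p = 0.934 from limma), and it turned positive, at 0.02, with quantile and with cyclic loess normalization.

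**Figure D2:**
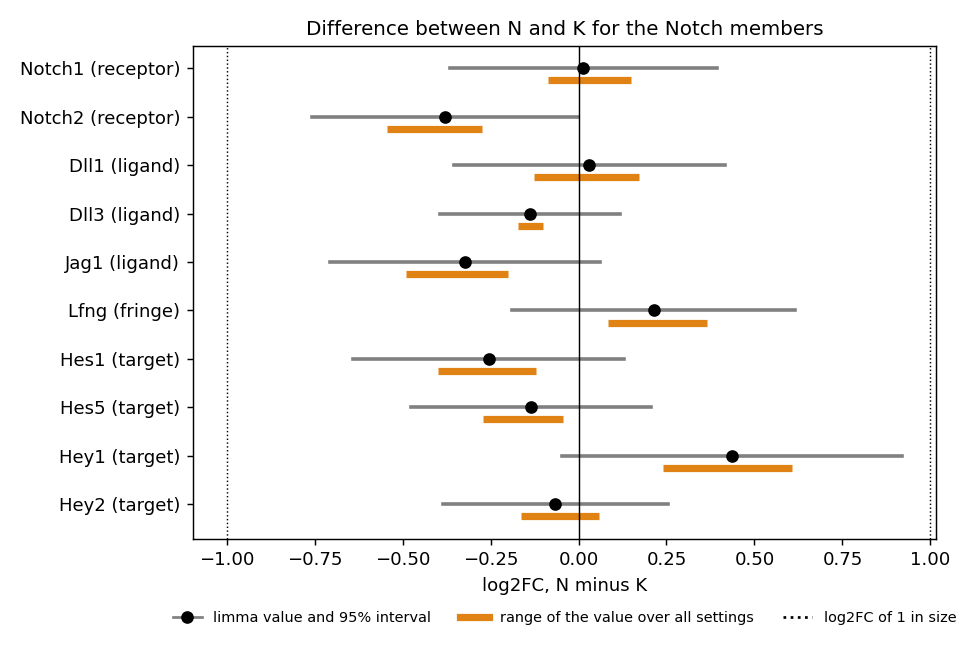
N minus K difference in log2 units (horizontal axis) for each of the 10 Notch genes, with the limma value as a point, its 95% interval as a grey line, and the range of the value over all settings tried as an orange bar. Of the 10 intervals 9 include 0, that of Notch2 ends at -0.0008, and none reaches a log2FC of 1 in size.

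Since Hey1 and Hes1 had log2FC of opposite sign, the genes were also compared within each array, where a factor common to all genes of an array cancels. Hes1 minus Hey1 was -1.73, -1.69 and -1.87 on the N arrays and -0.78, -1.25 and -1.20 on the K arrays. The groups did not overlap, and the mean difference shifted by -0.69 with N (exact two-sided permutation p = 0.1, the smallest that this design can give). This pair was singled out after its values were seen, and levels of different clusters cannot be ranked by abundance. Over all 45 pairs of the 10 genes, 5 did not overlap, or 11.1%, beside 14.2% of all pairs of measured genes, so pairs apart in this way were no more frequent here than in the whole set. Hey1 was in 3 of them, with Hes1, Notch1 and Notch2, and the others were Notch1 with Notch2 and Notch2 with Lfng. Of the 6 pairs among the 4 target genes, Hes1 with Hey1 was the one that did not overlap.

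**Figure D3:**
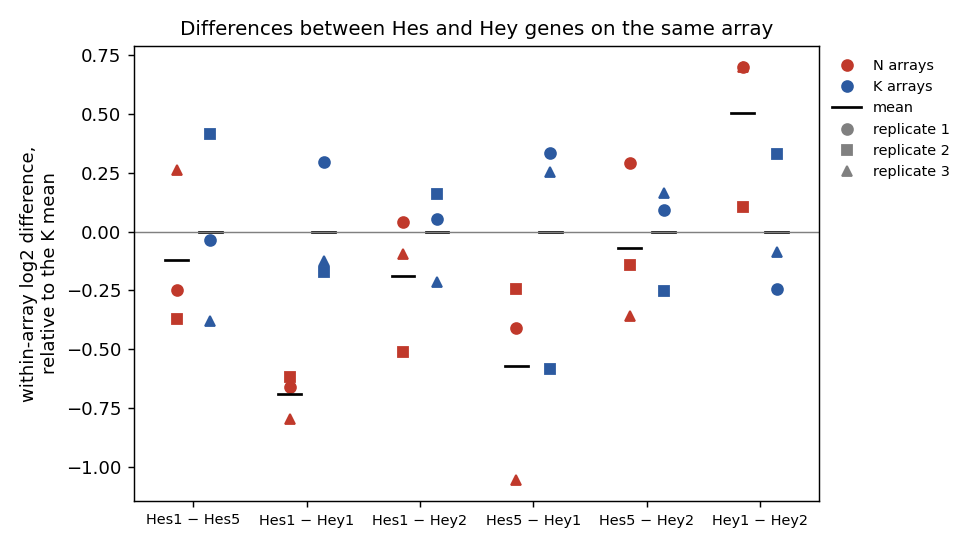
Within-array log2 differences between pairs of Hes and Hey genes (vertical axis, shifted so that the K mean is 0) for N arrays (red) and K arrays (blue), with replicate numbers as point shapes and black bars for means. Hes1 minus Hey1 is lower on all N arrays than on any K array, by 0.69 on average, and the groups overlap in the other 5 pairs.

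The rest of the pathway was read from a list of other genes by role, of which 51 were measured. None of the 51 passed at an adjusted p under 0.05 in limma. At an unadjusted P under 0.05, 0 were higher and 4 were lower with N, or 7.84%. Of all genes, 8.54% were called in either direction and 3.89% as lower. Of the 51, 39 had a negative log2FC and 12 a positive one (23.5%, beside 43.0% of all genes), and the median was -0.08 against -0.03 over all genes. Without N replicate 3 the number of negative values was 32 and the median -0.04. The number was 36 with quantile and with cyclic loess normalization and 34 with arrays centred on the median. The share of all genes with a positive log2FC moved too. It was 44.8% without N replicate 3, 47.4% with quantile normalization, 50.4% with cyclic loess normalization and 49.0% with arrays centred on the median. The groups did not overlap for 7 genes, all with N below K, or 13.7%. Of all genes, 13.3% had groups apart in either direction and 7.55% with N below K. These counts describe the list and were not tested.

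The 4 genes with an unadjusted P under 0.05 were Maml2, Ncstn, Tle1 and Spen, and in each the 3 N arrays lay below the 3 K arrays. Maml2 encodes a Mastermind co-activator of the Notch complex and had a log2FC of -0.57 (standard error 0.20, adjusted p = 0.484 from limma), with N arrays at 9.06, 8.76 and 9.49 and K arrays at 9.92, 9.49 and 9.60. N replicate 3 and K replicate 2 read the same to the precision given. A further cluster of Maml2 had a log2FC of -0.27 with overlapping groups. Ncstn encodes nicastrin, the gamma-secretase subunit that receives substrates, and had a log2FC of -0.35 (standard error 0.13, adjusted p = 0.497 from limma), with N arrays at 8.24, 8.27 and 8.20 and K arrays at 8.62, 8.72 and 8.40. Tle1 and Spen encode co-repressors, Tle1 a partner of Hes proteins and Spen a partner of RBPJ. Their log2FC were -0.36 (adjusted p = 0.540 from limma) and -0.33 (adjusted p = 0.557 from limma). The cluster of Tle1 was dim, with N arrays at 5.90, 5.97 and 6.09 and K arrays at 6.14, 6.32 and 6.56. The filter on intensity removed it. Of the 7 measured co-repressor genes 6 had a negative log2FC and 1 a positive one (14.3%, beside 43.0% of all genes). The number negative was 7 with quantile and with cyclic loess normalization and 5 without N replicate 3. Their median was -0.25, and it ran from -0.33 with quantile normalization to -0.15 without K replicate 3. None of the 7 passed after adjustment.

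In the other roles the gene with the smallest P had an adjusted p between 0.595 and 0.744 from limma. The receptor gene Notch3 had a log2FC of -0.22, the ligand gene Jag2 -0.28, and Mib1, whose product marks ligands for endocytosis, -0.30. Nrarp, a Notch-induced inhibitor of the pathway, had -0.23, and Poglut1, whose product glycosylates the receptor, had 0.49. Hes2 had 0.22, and it was the 1 positive value among the other 5 Hes and Hey genes, whose median was -0.01. The clusters of Jag2 (means 5.94 with N and 6.22 with K) and Hes2 (6.10 and 5.88) were dim. The filter on intensity removed both. RBPJ itself, encoded by Rbpj, had -0.08 in the cluster used and 0.09 in its dimmer one. Proneural genes, a class that Hes proteins are known to repress, did not pass either. Neurog1, Neurog2, Neurod1, Neurod4 and Atoh1 had log2FC of -0.005, -0.05, 0.14, -0.18 and -0.02, with adjusted p of 0.796 and above, and all 5 had overlapping groups.

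**Figure D4:**
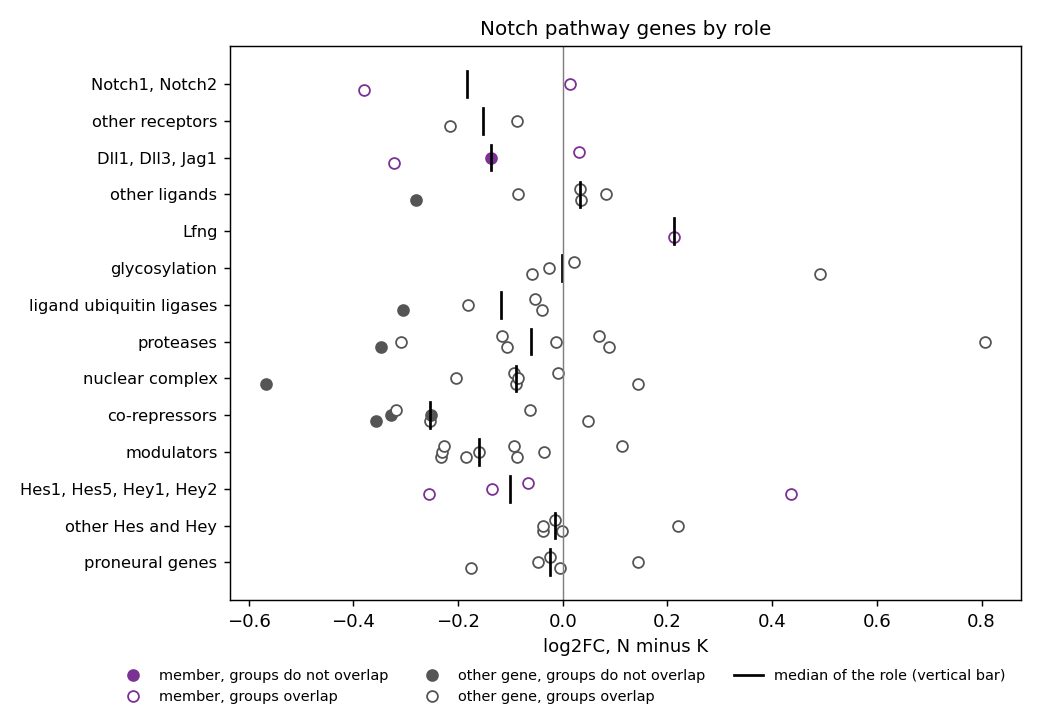
N minus K difference in log2 units (horizontal axis) for the 10 Notch genes (purple), 51 other pathway genes and 5 proneural genes (grey), by role, with filled points where the groups do not overlap and the role's median as a black bar. The filled points all lie below 0, and the co-repressors have the lowest median, -0.25.

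Markers of other cell types were read beside these values, and their part in them was not tested. The mean over 8 astrocyte markers was 9.07 to 9.51 with N and 8.54 to 8.61 with K. Of the 8, 7 lay higher on all N arrays, beside 5.78% of all genes. The exception, S100b, had a log2FC of -0.47 with overlapping groups. Only 1 of the 8, Gfap, rose at an adjusted p under 0.05 in limma (log2FC 1.66, adjusted p = 0.0358), beside 0.12% of all genes. Aqp4, named with Gfap at the head of the list, had a log2FC of 1.56 (adjusted p = 0.0738 from limma). No marker of the other lists passed. Endothelial cells also use Hey1, Hey2 and Jag1, and their 8 markers averaged 5.49 to 5.56 with N and 5.51 to 5.68 with K, with Pecam1 and Cdh5 below the median of all clusters in both groups. The 7 neuron and neuroblast markers averaged 6.70 to 6.73 with N and 6.50 to 6.80 with K, the 7 of the oligodendrocyte lineage 7.66 to 7.69 and 7.70 to 7.80, the 10 of mural cells and fibroblasts 6.17 to 6.24 and 6.06 to 6.21, the 7 of microglia 5.84 to 6.10 and 5.86 to 6.08, and the 6 of ependymal cells 5.96 to 6.06 and 5.80 to 6.04. The first 2 of each list were Dcx and Tubb3, Olig1 and Olig2, Pdgfrb and Rgs5, Aif1 and Cx3cr1, and Foxj1 and Ccdc153, with log2FC of -0.07 and 0.47, -0.25 and -0.20, -0.13 and 0.07, -0.17 and -0.18, and 0.07 and 0.21.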

How the data were processed

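RNA from 3 N and 3 K neurosphere cultures was hybridised to Affymetrix Mouse Gene ST arrays, 1 per sample. The authors processed the scans in Partek Genomics Suite with RMA, and deposited 1 log2 value per transcript cluster, background-corrected and normalized between arrays; versions and settings are not given in the sources used here. RMA draws arrays to a common distribution, so a change shared by most genes would not be seen. Of 34760 clusters, 21640 carried exactly 1 symbol in the platform annotation, and the one with the highest mean over 6 arrays was kept per gene (19937 genes). Positions and promoters come from RefSeq, GRCm38.p6.

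The comparison of N with K used lmFit and eBayes of limma 3.58.1 (R 4.3.3; 4 residual and 4.59 prior degrees of freedom), adjusting over all genes at 0.05, with no filter on dim clusters. The fit was tested on simulated data. The genes, lists and tests were chosen with earlier results of these data known. Named beyond the 10 genes are list genes with an unadjusted P under 0.05, the smallest P of each role, the proneural genes, and the first 2 markers of each list with any that passed. Rbpj and S100b, and in the closing section Psenen and Hdac1, were named after their values were seen. Alternatives were a block for the replicate number, an ordinary linear model, eBayes with trend and robust, genes above the median intensity, quantile and cyclic loess normalization, median centring, averaging a gene's clusters, all transcript clusters, and each array left out. The number of arrays limits the precision. Figures were drawn with matplotlib 3.10.9.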

Additional observations from a re-analysis of the deposited data

How the results depend on the processing

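The 10 Notch genes had 0 calls at an adjusted p under 0.05 in limma and in all 15 alternatives, 1 of which, the intensity filter, removed Dll1 and Hey2. Of 148 log2FC of single genes under an alternative, 139 kept their sign and 9 reversed, none past the threshold. Notch1 reversed with quantile normalization (-0.00959) and without 1 array (-0.0869 to 0.15 over the arrays left out), Dll1 without 1 array (-0.13 to 0.17), and Hey2 with quantile (0.0167) and cyclic loess normalization (0.0168) and without N replicate 1 (-0.16 to 0.0592 over the arrays left out). The number of the 10 with an unadjusted P under 0.05 was 0 with genes above the median intensity, quantile or cyclic loess normalization, arrays centred on the median, or all transcript clusters, and 0 to 2 with 1 array left out. The 2 without N replicate 3 were Notch2 and Hes1. The cause of these changes was not tested. The count of the other 51 pathway genes at an unadjusted P under 0.05 was 4 in limma and 2 in the ordinary linear model. It was 5 with the replicate block, 6 with quantile and with cyclic loess normalization, and 0 to 6 with 1 array left out. With genes above the median intensity, arrays centred on the median or all transcript clusters it was 3. That count over all genes was 1702 in limma, 1742 with quantile and 1755 with cyclic loess normalization. Over all genes the adjusted count was 31 in limma, 1 in the ordinary linear model, 12 with quantile and with cyclic loess normalization, 3 with arrays centred on the median, 0 with all transcript clusters (1225 at an unadjusted P under 0.05), and 0 to 21 with 1 array left out (0 on dropping replicate 1 or 2 of N, or replicate 1 of K, where limma gave 1251, 1274 and 1334 genes at an unadjusted P under 0.05). With the replicate number as a block 41 genes passed, and 0 of the 10 Notch genes, with Notch2 at an unadjusted P of 0.0320 (adjusted p = 0.463). The sources used here do not say whether a shared replicate number pairs an N culture with a K culture. Deviations from the group means correlated at 0.04, 0.04 and 0.12 for replicates 1, 2 and 3. Between different numbers the correlations ran from -0.14 to 0.11, and not every array correlated best with its own number. With so few arrays these values cannot settle the pairing. The block changed no call among the 10.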

Other observations

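Psenen, which encodes the gamma-secretase subunit PEN-2, had the highest log2FC of the 51 other pathway genes, 0.81 (standard error 0.39, adjusted p = 0.636 from limma). Its N arrays read 10.56, 10.48 and 10.23 and its K arrays 9.36, 10.66 and 8.83, so K replicate 2 lay above all N arrays and the other K arrays far below. A further cluster of Psenen also had K replicate 2 highest and K replicate 3 lowest, with K arrays at 7.83, 8.84 and 6.31 and N arrays at 8.52, 8.54 and 8.81. Without K replicate 2 the log2FC of Psenen was 1.33 (adjusted p = 0.0607 from limma). Poglut1 had the same arrangement, with K replicates 1 and 3 at 7.55 and 7.66, K replicate 2 at 8.69 and the N arrays at 8.57, 8.53 and 8.27. Without K replicate 2 the log2FC of Poglut1 was 0.85 (adjusted p = 0.0921 from limma). With that array left out, limma gave 2912 of all genes at an unadjusted P under 0.05, against 1702 with all 6 arrays.

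The deacetylase gene Hdac1 had N arrays at 9.29, 9.41 and 9.41 and K arrays at 9.54, 9.60 and 9.72, with a log2FC of -0.25 (adjusted p = 0.619 from limma). A second cluster of Hdac1 had overlapping groups and a log2FC of -0.04.

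Among the 10 Notch genes, K replicate 2 held the highest value for 3 and the lowest for 3. N replicate 3 and K replicate 3 each held the highest for 3 and the lowest for 0. N replicates 1 and 2 each held the lowest for 3 and the highest for 0, and K replicate 1 held the highest for 1 and the lowest for 1.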
